A study of Mus musculus with 24 samples.

Results

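Cyp3a11, Cyp3a13 and Cyp3a25 are the 3 cytochrome P450 genes of the mouse Cyp3a family that were described here across the livers of 24 mice. They were chosen by name, as every probe set that the platform annotation assigns to 1 of these genes. Each gene had 1 such probe set (1416809_at for Cyp3a11, 1419523_at for Cyp3a13 and 1424973_at for Cyp3a25), so the 3 genes stand for 3 of 12393 genes with a probe set. All 3 lay above the dim limit, the 40th percentile of an array, on 24 of 24 arrays and were among the 9167 genes tested.

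Gene expression was measured in livers of female mice of mixed C57BL/6x129Sv background, with 1 Affymetrix array per mouse and 2 mice in each of 12 groups. Human CAR mice, labelled CAR.AH, expressed human CAR from a transgene, which the albumin promoter of the mouse controls, and lacked the mouse CAR gene. Knockout mice, labelled CAR.KO, had no CAR of either species, and wild-type mice had mouse CAR alone. Within each genotype, mice were injected intraperitoneally over 3 days with phenobarbital at 100 mg/kg per day, with TCPOBOP at 3 mg/kg once on the first day and corn oil after that, with CITCO at 30 mg/kg per day, or with corn oil alone. Livers were collected 6 h after the final injection. According to the labels, phenobarbital is an anticonvulsant that brings both mouse and human CAR into the nucleus, TCPOBOP is a ligand of mouse CAR that the mouse does not metabolise, and CITCO is specific to human CAR. The 3 ligands were given at different doses, so they are described side by side and not compared with each other.

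Cyp3a enzymes are haem proteins of the endoplasmic reticulum that oxidise drugs, steroids and bile acids, and they are abundant in hepatocytes. Their best known regulator is the pregnane X receptor PXR, encoded by Nr1i2, a nuclear receptor that pairs with a retinoid X receptor and binds repeated short sites in the DNA of its target genes. The constitutive androstane receptor CAR, encoded by Nr1i3, pairs with the same partner and can bind many of the same repeats, so a drug can raise a Cyp3a gene through either receptor. The comparison of knockout with wild-type livers asks which part of a response needs CAR.

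The 3 genes lie on mouse chromosome 5. In the RefSeq gene order of GRCm38.p6, Cyp3a11 and Cyp3a25 are direct neighbours in a run of 8 Cyp3a genes, while Cyp3a13 lies outside the run, with 121 other protein-coding genes between. The promoter windows of RefSeq on the same build span 250 bases before to 50 bases after the gene start. They are shown because the 3 genes differ in the number of single receptor sites there. PXR and CAR bind repeats of this site, and none of the repeats searched was found in the 3 windows. Capitals mark the receptor site, AGGTCA or AGTTCA on either strand, and each sequence reads 5′ to 3′ on the minus strand, on which all 3 genes lie.
Cyp3a11, chr5:145879805-145880104: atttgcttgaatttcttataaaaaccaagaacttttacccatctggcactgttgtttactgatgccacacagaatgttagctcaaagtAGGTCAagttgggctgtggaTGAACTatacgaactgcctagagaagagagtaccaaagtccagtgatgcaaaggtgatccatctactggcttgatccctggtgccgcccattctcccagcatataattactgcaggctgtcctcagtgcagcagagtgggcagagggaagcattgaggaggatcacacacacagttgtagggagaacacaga
Cyp3a13, chr5:137921570-137921869: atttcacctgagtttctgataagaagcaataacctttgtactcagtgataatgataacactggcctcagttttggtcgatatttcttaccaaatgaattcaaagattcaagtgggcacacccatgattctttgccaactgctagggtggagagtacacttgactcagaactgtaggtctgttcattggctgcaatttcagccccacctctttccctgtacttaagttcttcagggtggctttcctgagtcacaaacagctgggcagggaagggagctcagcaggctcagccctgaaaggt
Cyp3a25, chr5:146009569-146009868: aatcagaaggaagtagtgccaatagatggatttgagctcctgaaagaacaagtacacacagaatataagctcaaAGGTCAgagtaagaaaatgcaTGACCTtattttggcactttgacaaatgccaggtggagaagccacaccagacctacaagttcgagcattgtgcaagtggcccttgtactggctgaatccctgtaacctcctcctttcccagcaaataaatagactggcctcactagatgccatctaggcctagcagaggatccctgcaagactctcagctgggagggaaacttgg
The Cyp3a11 window held 2 receptor sites, starting at -162 and -142 from the gene start, and the Cyp3a25 window held 2, starting at -176 and -155. The Cyp3a13 window held 0. At least 1 receptor site was found in 7454 of 27025 promoter windows of the same length (27.6%). Repeats of the exact receptor site, in some of the arrangements known for PXR and CAR, were searched on both strands. Overlap with the single sites was allowed. Imperfect sites, other arrangements and DNA outside the windows were not searched. Direct repeats 3 bases apart were found in 0 of the 3 windows and 0.0111% of all windows, and direct repeats 4 apart in 0 and 0.0259%. Everted repeats 6 apart, and those 8 apart, were likewise found in 0 of the 3 windows, and each in 0.0111% of all windows. Since such exact repeats were rare in all windows, their absence from 3 windows does not tell whether PXR or CAR binds there. The windows had 57.4% of aligned positions identical between Cyp3a11 and Cyp3a13, 55.7% between Cyp3a11 and Cyp3a25, and 52.7% between Cyp3a13 and Cyp3a25.

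The values are RMA log2 expression, so a difference of 1 is a 2-fold difference in signal. The Nr1i3 probe set checked the genotypes: its level was 5.03 to 5.60 in 8 human CAR livers, 5.06 to 5.40 in 8 knockout livers and 6.84 to 8.0 in 8 wild-type livers. Whether it lies in the deleted part is not given in the sources used here. The human CAR arrays read the mouse gene, and the human transcript was not analysed. The 2 arrays with the lowest median correlation with the others were marked as standing apart, whatever the gap to the rest. They were a phenobarbital array of human CAR (replicate 1, 0.97) and a phenobarbital array of knockout mice (replicate 2, 0.9796). The rest had 0.981 to 0.991, so the knockout array was close to them. The 10 hepatocyte markers averaged between 12.0 and 12.53 on every array, while 11 Kupffer cell markers ranged from 6.64 to 8.24 and 7 neutrophil markers from 5.32 to 6.89. In bulk liver, fewer cells of a type and less RNA per cell cannot be told apart. Of 6 intestine markers, 2 lay above the dim limit on every array.

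Cyp3a11, the main adult hepatic Cyp3a of the mouse and the usual readout of PXR activity, was among the brightest genes on every array, between the 99.4th and 99.91st percentile. In human CAR livers its level was 12.34 and 12.34 on phenobarbital, 12.20 and 12.13 on TCPOBOP, 12.18 and 12.27 on CITCO, and 11.99 and 11.95 on corn oil. In knockout livers it was 11.92 and 12.24 on phenobarbital, 12.09 and 12.27 on TCPOBOP, 11.81 and 11.59 on CITCO, and 11.81 and 11.93 on corn oil. In wild-type livers it was 12.40 and 12.61 on phenobarbital, 12.47 and 12.62 on TCPOBOP, 12.28 and 12.25 on CITCO, and 11.39 and 11.95 on corn oil. The 4 wild-type livers on phenobarbital or TCPOBOP had the highest levels of all 24, and wild-type corn oil replicate 1 had the lowest. By group mean, TCPOBOP in wild type was highest at 12.54, followed by phenobarbital in wild type at 12.50, and these neighbours overlapped. Phenobarbital in human CAR came next at 12.34 and overlapped neither neighbour. From CITCO in wild type at 12.27 down to corn oil in human CAR at 11.97, each group overlapped the next. Corn oil in knockout (11.87) lay apart from its neighbours, and CITCO in knockout (11.70) and corn oil in wild type (11.67) overlapped at the bottom.

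Cyp3a11 rose in wild type on phenobarbital and on TCPOBOP. On phenobarbital the wild-type change was 0.83 (SE 0.15, limma adjusted p = 0.0101), a 1.78-fold higher signal with a 95% interval of 1.42 to 2.23. On TCPOBOP it was 0.87 (SE 0.15, limma adjusted p = 0.002), or 1.83-fold (1.46 to 2.29). In both cases the 2 treated livers lay above both corn oil livers. In the same livers Cyp2b10, the standard CAR target, had 11.88 and 12.06 on phenobarbital and 12.24 and 12.48 on TCPOBOP, against 4.66 and 5.22 on corn oil. The 4.66 lies below the dim limit (4.93 to 5.08 across arrays), so no exact fold is given for it. Kupffer cell markers averaged 7.31 and 7.21 on phenobarbital and 7.79 and 7.53 on TCPOBOP, against 7.99 and 7.58 on corn oil, and hepatocyte markers 12.09 and 12.07, and 12.0 and 12.0, against 12.15 and 12.36. Their part in the results of the 3 genes was not tested. Wild-type corn oil replicate 1 was the lowest of the 24 arrays for all 3 genes. Without it the phenobarbital change of Cyp3a11 was 0.55 (adjusted p = 0.12) and the TCPOBOP change 0.59 (adjusted p = 0.0398). Without wild-type phenobarbital replicate 2 the phenobarbital change was 0.73 (adjusted p = 0.182).

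In knockout and human CAR livers, no change of Cyp3a11 passed, and neither did CITCO in wild type. In knockout livers the change was 0.21 on phenobarbital (95% interval -0.11 to 0.53, limma adjusted p = 0.415) and 0.31 on TCPOBOP (-0.01 to 0.64, adjusted p = 0.453). The phenobarbital livers of the knockouts overlapped the corn oil livers, while their TCPOBOP livers lay above them. In human CAR livers it was 0.37 on phenobarbital (0.05 to 0.69, adjusted p = 0.191) and 0.19 on TCPOBOP (-0.13 to 0.52, adjusted p = 0.828). CITCO gave 0.25 in human CAR (-0.07 to 0.58, adjusted p = 0.77), -0.17 in knockout (-0.49 to 0.15, adjusted p = 0.732) and 0.60 in wild type (0.27 to 0.92, adjusted p = 0.401). The 2 CITCO livers lay above both corn oil livers in human CAR and in wild type, and below them in knockout. For Cyp3a11, 8 of the 9 ligand groups did not overlap their corn oil group. With 2 mice a group, such separation was common among all genes tested. On phenobarbital, TCPOBOP and CITCO, in this order, it was found for 48.6%, 38.3% and 29.3% of genes in human CAR, 51.8%, 55% and 52.7% in knockout, and 52.1%, 54.2% and 45.6% in wild type. For Cyp3a13 it held in 5 of 9 ligand comparisons and for Cyp3a25 in 8 of 9.

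Cyp3a25, a P450 of adult liver, was also near the top of every array, between the 97.89th and 99.43rd percentile. Human CAR livers had 10.31 and 11.27 on phenobarbital, 10.97 and 11.07 on TCPOBOP, 10.55 and 10.37 on CITCO, and 10.79 and 10.65 on corn oil. Knockout livers had 11.35 and 11.41 on phenobarbital, 10.87 and 11.28 on TCPOBOP, 10.56 and 10.42 on CITCO, and 10.70 and 10.66 on corn oil. Wild-type livers had 11.32 and 11.49 on phenobarbital, 11.27 and 11.37 on TCPOBOP, 11.04 and 11.19 on CITCO, and 10.14 and 10.58 on corn oil. Phenobarbital in wild type (mean 11.41) and in knockout (11.38) and TCPOBOP in wild type (11.32) led the order and overlapped one another in turn. CITCO in wild type (11.11) and the next 5 groups, down to corn oil in human CAR (10.72) and in knockout (10.68), each overlapped the next. CITCO in knockout (10.49), CITCO in human CAR (10.46) and corn oil in wild type (10.36) came last and overlapped in turn.

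Cyp3a25 rose in wild type on phenobarbital by 1.05 (SE 0.22, limma adjusted p = 0.0246), which is 2.07-fold (1.49 to 2.86), and on TCPOBOP by 0.96 (SE 0.22, adjusted p = 0.0148), which is 1.95-fold (1.41 to 2.69). The treated livers lay above both corn oil livers in each case. Both calls were sensitive to leaving out 1 array. The reduced group then holds 1 mouse, so a lost call does not show that a particular mouse made the result. The phenobarbital call was lost whichever of the 4 arrays was left out, with changes of 0.82 (without corn oil replicate 1) to 1.27 (without corn oil replicate 2) and adjusted p of 0.0582 to 0.251. The TCPOBOP call was lost without corn oil replicate 1 (0.74, adjusted p = 0.17) and without either TCPOBOP array (0.91 and 1.01, adjusted p = 0.111 and 0.0659).

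In knockout livers on phenobarbital the value for Cyp3a25 was 0.70 (SE 0.22, 95% interval 0.23 to 1.17), and both treated livers lay above both controls. It ranked 52 from the highest among the changes of 9167 genes there, but the adjusted p was 0.112, so it did not pass. Markers of other cells differed along the same comparison. Kupffer cell markers (10 of 11 above the dim limit) averaged 7.34 and 6.64 on phenobarbital against 8.24 and 8.02 on corn oil, and stellate cell markers (9 of 10) 6.32 and 6.16 against 6.51 and 6.84. Hepatocyte markers averaged 12.32 and 12.53 against 12.33 and 12.21. In knockout, Kupffer cell markers were also below their corn oil levels on TCPOBOP (7.43 and 6.96) and on CITCO (7.29 and 7.42). Stellate cell markers were too, with 6.33 and 6.34 on TCPOBOP and 6.47 and 6.34 on CITCO. The part of these markers in the knockout values of the 3 genes was not tested. For Cyp3a25, TCPOBOP gave 0.40 in knockout (-0.07 to 0.87, adjusted p = 0.511) and 0.30 in human CAR (-0.17 to 0.77, adjusted p = 0.815), with both treated livers above the controls in each genotype. CITCO gave -0.26 in human CAR (adjusted p = 0.873), -0.19 in knockout (adjusted p = 0.809) and 0.75 in wild type (0.28 to 1.22, adjusted p = 0.488). The human CAR livers on phenobarbital were split by 0.96, the widest gap between the mice of any group for this gene. The change there was 0.07 (adjusted p = 0.871) with both, 0.55 without replicate 1, the array that stood apart, and -0.41 without replicate 2. On that replicate 1 array the neutrophil markers averaged 6.89, against 5.69 on replicate 2, and their part in the result was not tested.

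Cyp3a13, which is expressed in both liver and intestine, lay between the 95.62nd and 98.66th percentile of its array. Human CAR livers had 10.48 and 10.45 on phenobarbital, 9.87 and 9.80 on TCPOBOP, 10.28 and 9.94 on CITCO, and 10.26 and 9.97 on corn oil. Knockout livers had 10.11 and 10.59 on phenobarbital, 9.75 and 9.89 on TCPOBOP, 9.92 and 10.13 on CITCO, and 9.93 and 9.65 on corn oil. Wild-type livers had 9.57 and 10.18 on phenobarbital, 10.14 and 10.56 on TCPOBOP, 9.35 and 9.29 on CITCO, and 9.20 and 9.35 on corn oil. The 4 wild-type livers on CITCO or corn oil (group means 9.32 and 9.28) were the lowest of the 24 and lay apart from every other group. Above them, from corn oil in knockout (9.79) up to phenobarbital in human CAR (10.46), each of the other 10 groups overlapped the next.

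Cyp3a13 rose on TCPOBOP in wild type by 1.07 (SE 0.20, limma adjusted p = 0.00366), a 2.1-fold higher signal (1.56 to 2.83) with both treated livers above both controls. Without TCPOBOP replicate 2, the change was 0.86 (adjusted p = 0.0727). On TCPOBOP its change was -0.28 in human CAR (-0.70 to 0.15, adjusted p = 0.812) and 0.03 in knockout (-0.40 to 0.46, adjusted p = 0.97), where treated and control livers overlapped. Phenobarbital gave similar values in knockout and wild type, neither of which passed. The change was 0.35 in human CAR (-0.08 to 0.78, adjusted p = 0.323), 0.57 in knockout (0.14 to 0.99, adjusted p = 0.141) and 0.60 in wild type (0.17 to 1.03, adjusted p = 0.187), and in all 3 genotypes the treated livers lay above the controls. Without knockout phenobarbital replicate 1 the knockout change was 0.81, and without replicate 2, the knockout array marked as standing apart, it was 0.32. CITCO changes lay between -0.01 in human CAR and 0.24 in knockout, with treated and control livers overlapping in all 3 genotypes.

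**Figure D1:**
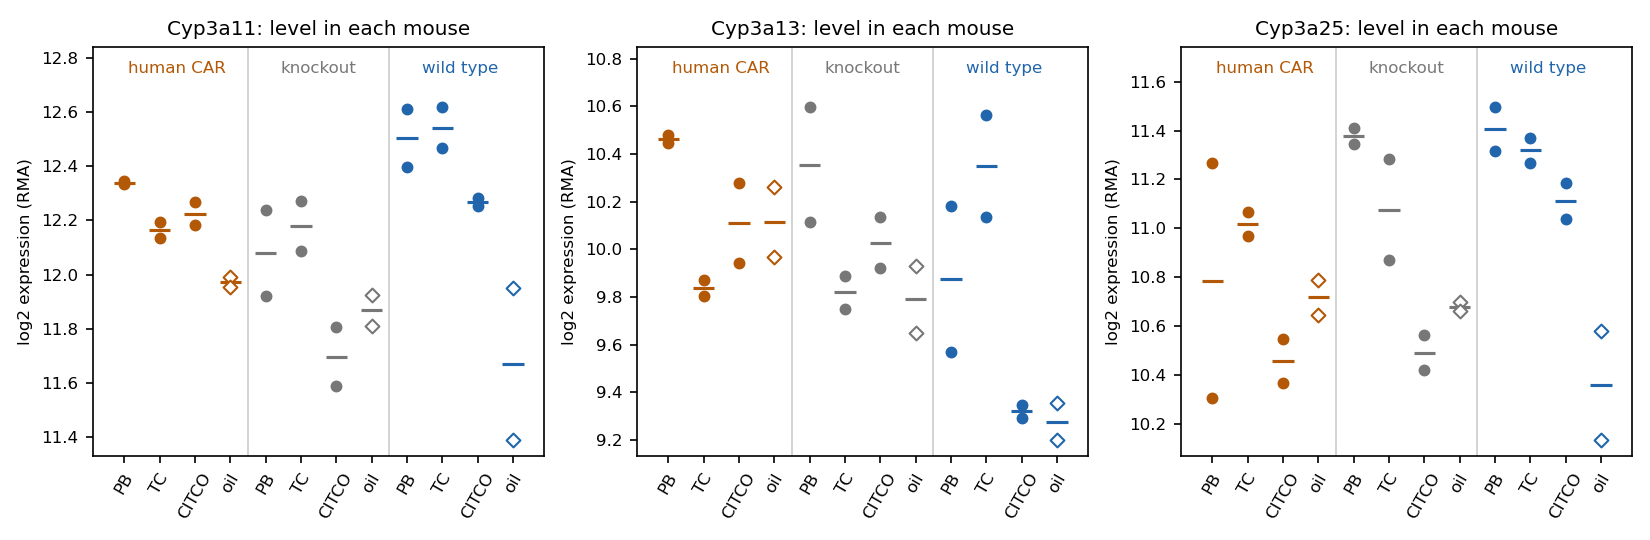
Level of Cyp3a11, Cyp3a13 and Cyp3a25 in each of 24 livers (vertical axes, RMA log2 expression, a separate scale per gene) by genotype and treatment (PB phenobarbital, TC TCPOBOP, oil corn oil). Filled circles are ligand livers, open diamonds corn oil livers and bars the means of 2. Wild-type corn oil replicate 1 is the lowest point in each panel, and the 4 wild-type livers on CITCO or corn oil are the lowest for Cyp3a13.

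Counted over the 3 genes, 2 passed as higher on phenobarbital in wild type, where 0.895% of all genes did (1.47% in either direction), and 3 passed as higher on TCPOBOP in wild type, where 3.34% did (6.14%). The number of genes behind these shares moved with single arrays: it was 135 on phenobarbital and 19 to 59 with 1 array left out, and 563 on TCPOBOP and 237 to 297. With CITCO in wild type 0 of 3 passed (0.0327% of all genes in either direction), although 2 of 3 had an unadjusted limma p under 0.05, as did 7.28% of all genes. In knockout livers 0 of 3 passed on phenobarbital, TCPOBOP or CITCO, with 2, 0 and 0 at an unadjusted p under 0.05. The shares of all genes called there in either direction were 0.731%, 0.0764% and 0.0327%, and those at an unadjusted p under 0.05 were 21.3%, 11.4% and 9.4%. In human CAR livers 0 of 3 passed on any ligand, with 1, 0 and 0 at an unadjusted p under 0.05, and the shares of all genes called were 0.665%, 0% and 0.0873%. At an unadjusted p under 0.05 the shares of all genes were 21.2%, 6.65% and 7.49%. All 3 changes were positive on phenobarbital in each genotype, on TCPOBOP in knockout and wild type, and on CITCO in wild type.

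**Figure D2:**
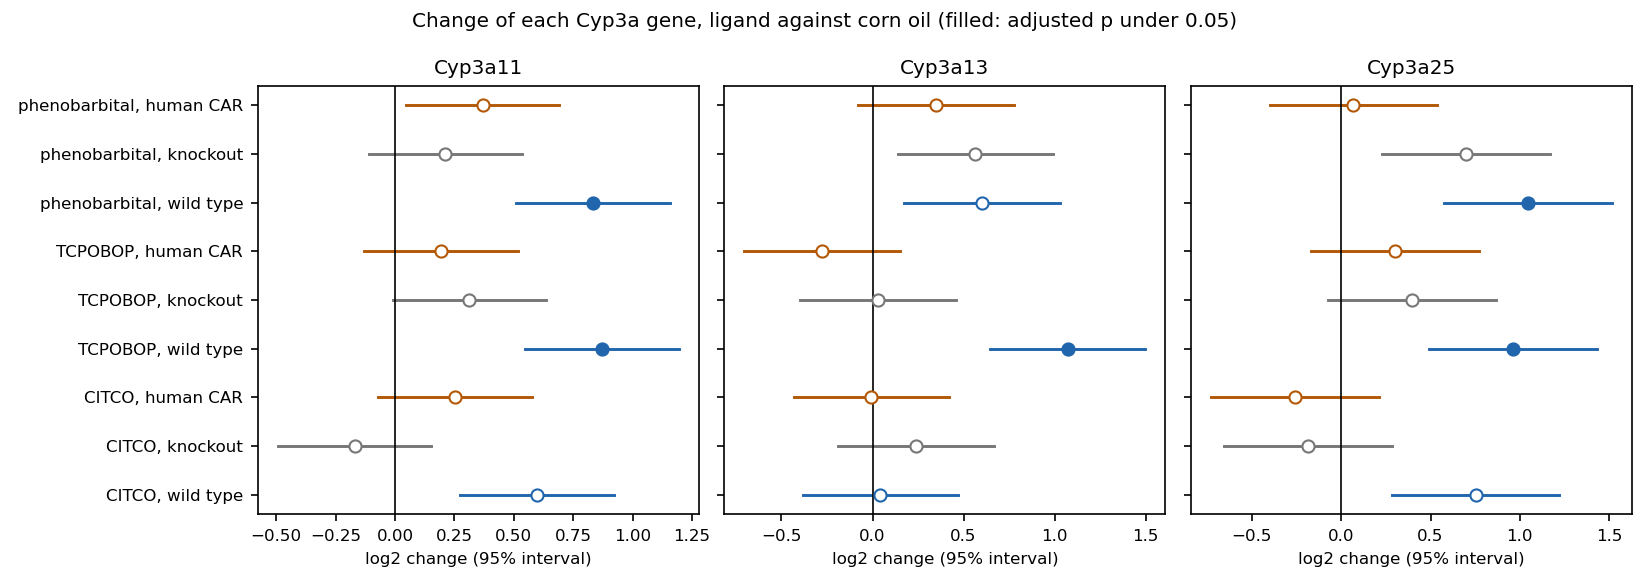
Log2 change of each gene under each ligand against corn oil of the same genotype (horizontal axes), with 95% intervals of the limma fit that are not adjusted for the number of genes. Filled points passed at an adjusted p under 0.05. Each filled point belongs to wild type on phenobarbital or TCPOBOP, and the knockout intervals of Cyp3a13 (0.14 to 0.99) and Cyp3a25 (0.23 to 1.17) on phenobarbital lie above 0 without passing.

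Whether a response differed with CAR was tested on the difference of changes itself. For the 3 genes on phenobarbital, knockout against wild type gave 0 passing differences, with 1 at an unadjusted p under 0.05 (0.153% of all genes passed, and 9.14% had such a p). For Cyp3a11 the values were 0.21 in knockout and 0.83 in wild type, and wild type minus knockout was 0.62 (95% interval 0.165 to 1.08, limma adjusted p = 0.38). Without 1 array this Cyp3a11 difference lay between 0.34 (without wild-type corn oil replicate 1) and 0.90. For Cyp3a25 they were 0.70 in knockout and 1.05 in wild type, a difference of 0.35 in the same direction (-0.32 to 1.01, adjusted p = 0.776). For Cyp3a13, with 0.57 and 0.60, the difference was 0.03 (-0.57 to 0.64, adjusted p = 0.984). These intervals leave room for a difference of either sign for Cyp3a13 and Cyp3a25.

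On TCPOBOP, wild type minus knockout was 0.56 for Cyp3a11 (0.10 to 1.02, adjusted p = 0.265), 1.04 for Cyp3a13 (0.44 to 1.65, adjusted p = 0.0795) and 0.56 for Cyp3a25 (-0.10 to 1.23, adjusted p = 0.541). None of the 3 passed in a comparison in which 1.95% of genes did, and 2 had an unadjusted p under 0.05, as did 11.9% of genes. The value for Cyp3a13 passed in other settings: its adjusted p was 0.0353 with array weights and 0.0419 without the arrays that stood apart. The value for Cyp3a11 was 0.84 (adjusted p = 0.0427) without wild-type corn oil replicate 2 and 0.28 without replicate 1. On CITCO it was 0.77 for Cyp3a11 (0.31 to 1.22, adjusted p = 0.6), -0.19 for Cyp3a13 (adjusted p = 0.989) and 0.94 for Cyp3a25 (0.28 to 1.60, adjusted p = 0.754). No gene of the 3 passed for CITCO, and 2 had an unadjusted p under 0.05. Of all genes, 0.0218% passed and 5.64% had such a p. Each of these differences uses the same wild-type corn oil livers.

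The human CAR transgene was set against wild type and against knockout in the same way. On TCPOBOP, human CAR minus wild type was -1.35 for Cyp3a13 (SE 0.29, limma adjusted p = 0.0188), from changes of -0.28 in human CAR and 1.07 in wild type. This was the difference that passed among the 3 genes, and 1.22% of all genes passed as lower there (1.87% in either direction). It was between -1.56 and -1.13 when 1 array was left out, and the call was lost for 5 of 8 arrays: wild-type corn oil replicate 1, wild-type TCPOBOP replicate 2, human CAR corn oil replicate 1 and both human CAR TCPOBOP arrays (adjusted p = 0.0607 to 0.133). Cyp3a11 gave -0.68 (-1.14 to -0.22, adjusted p = 0.142), and -0.96 (adjusted p = 0.0215) without wild-type corn oil replicate 2. Cyp3a25 gave -0.66 (-1.32 to 0.00415, adjusted p = 0.437).

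On phenobarbital, human CAR minus wild type was -0.47 for Cyp3a11 (adjusted p = 0.474), -0.25 for Cyp3a13 (adjusted p = 0.812) and -0.98 for Cyp3a25 (adjusted p = 0.274), so 0 of 3 passed (0.164% of all genes), with 2 at an unadjusted p under 0.05 (10.4% of all genes). The Cyp3a25 value was -1.46 (adjusted p = 0.00161) without human CAR phenobarbital replicate 2 and -0.50 without replicate 1. On CITCO it was -0.34, -0.05 and -1.01 for the 3 genes in the same order (adjusted p = 0.649, 0.974 and 0.357), with 1 at an unadjusted p under 0.05 (9.41% of all genes) and 0% of all genes passing. Human CAR minus knockout passed for 0 of 3 genes on each ligand, with 0 at an unadjusted p under 0.05. The shares of all genes that passed were 0.0109% on phenobarbital, 0% on TCPOBOP and 0.0327% on CITCO. For CITCO, the ligand of human CAR, this difference was 0.42 for Cyp3a11 (-0.03 to 0.88, adjusted p = 0.759), -0.24 for Cyp3a13 (-0.85 to 0.36, adjusted p = 0.89) and -0.07 for Cyp3a25 (-0.74 to 0.59, adjusted p = 0.978). On phenobarbital it was -0.63 for Cyp3a25 (adjusted p = 0.662), and -1.11 (adjusted p = 0.0183) without human CAR phenobarbital replicate 2.

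**Figure D3:**
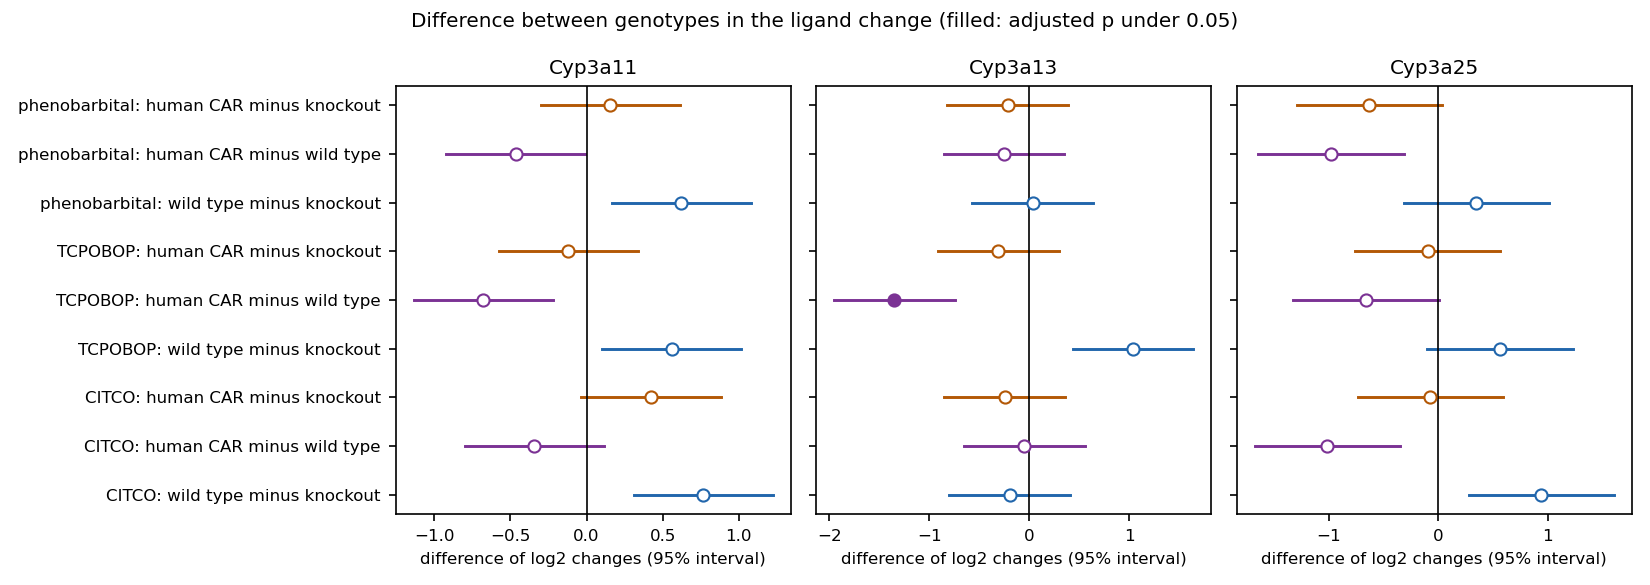
Difference between genotypes in the log2 change under each ligand (horizontal axes, a separate scale per gene), with 95% intervals of the limma fit that are not adjusted for the number of genes. The filled point passed at an adjusted p under 0.05 and is the TCPOBOP difference of Cyp3a13, human CAR minus wild type, at -1.35.

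On corn oil, the loss of mouse CAR moved none of the 3 genes past the threshold. Knockout minus wild type was 0.20 for Cyp3a11 (95% interval -0.13 to 0.52, limma adjusted p = 0.966), 0.51 for Cyp3a13 (0.08 to 0.94, adjusted p = 0.634) and 0.32 for Cyp3a25 (-0.15 to 0.79, adjusted p = 0.92). Human CAR minus wild type was 0.30, 0.84 and 0.36 for the same genes (adjusted p = 0.677, 0.217 and 0.767). For Cyp3a13 and Cyp3a25, the livers of both modified genotypes lay above both wild-type livers, and for Cyp3a11 those of human CAR did. Such a separation, in either direction, was found for 36.5% of all genes in human CAR and 41.8% in knockout (38.6% between human CAR and knockout). The human CAR minus wild type difference of Cyp3a13 ranked 23 from the highest of 9167 genes. Human CAR minus knockout was 0.10, 0.33 and 0.04 (adjusted p = 0.992, 0.886 and 0.997). Members with an unadjusted p under 0.05 numbered 1, 1 and 0 in these 3 comparisons, and the shares of all genes that passed were 0.229%, 0.0545% and 0.12%. At an unadjusted p under 0.05 the shares were 6.57%, 7.73% and 6.46%. Without wild-type corn oil replicate 1, knockout minus wild type was -0.08 for Cyp3a11.

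Other genes of the family were measured less well. Cyp3a44, a Cyp3a of female liver, lay above the dim limit on 2 of 24 arrays, between 4.38 and 5.26, so its values are close to the lower end of what the array reads. Those 2 arrays were phenobarbital replicate 2 (5.11) and TCPOBOP replicate 2 (5.26) of wild type, against 4.38 and 4.48 on corn oil. It was thus tested only because of the groups in which it was high, and no test is reported for it. Cyp3a16, a Cyp3a known from fetal mouse liver, stayed between 2.23 and 2.54 on all 24 arrays, below the dim limit, and was not tested. A probe set shared by Cyp3a41a and Cyp3a41b, a pair of near-identical genes known from female mouse liver, cannot be assigned to 1 of them. In a fit over 14763 probe sets it rose in wild type by 0.99 on phenobarbital (adjusted p = 0.00798) and by 1.22 on TCPOBOP (adjusted p = 0.000403). The wild-type means were 6.83 and 7.06 against 5.84 on corn oil. On the same ligands its changes in knockout were 0.36 and 0.56, which did not pass (adjusted p = 0.257 and 0.292). In human CAR they were 0.58 and 0.35, also without passing (adjusted p = 0.105 and 0.744). Wild type minus knockout was 0.63 and 0.66 for this probe set and did not pass (adjusted p = 0.47 and 0.253). Its change on CITCO was 0.63 in human CAR (adjusted p = 0.32), -0.21 in knockout (adjusted p = 0.71) and 0.65 in wild type (adjusted p = 0.418). Cyp3a57 and Cyp3a59 are not listed in the annotation used here. The promoter window of Cyp3a59 was 95.7% identical to that of Cyp3a25, and whether the Cyp3a25 probe set also reads its transcript was not tested.

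Few of the receptor genes passed the test. Nr1i2, the gene of PXR, lay between 5.99 and 6.77 on the 24 arrays and did not pass in any of 21 comparisons. Its most negative changes were in human CAR, at -0.63 on phenobarbital (limma adjusted p = 0.0682) and -0.66 on TCPOBOP (adjusted p = 0.529), and in wild type it was -0.07 and 0.09 on the same ligands. Rxra, the shared partner receptor, fell on phenobarbital in wild type, with 8.44 and 8.48 on phenobarbital against 9.38 and 9.27 on corn oil (change -0.86, SE 0.14, adjusted p = 0.00583). Its phenobarbital change was -0.59 in human CAR (adjusted p = 0.0581) and -0.07 in knockout (adjusted p = 0.789). The difference itself, wild type minus knockout, was -0.79 for Rxra and did not pass (adjusted p = 0.191). Of 21 tested receptors, cofactors and liver transcription factors, 0 rose and 1 fell on phenobarbital in wild type, and 0 rose and 1, the transcription factor Cebpa, fell on TCPOBOP in wild type (-0.55, adjusted p = 0.0334). Of all genes, 0.895% passed as higher and 0.578% as lower on phenobarbital in wild type, and 3.34% and 2.8% on TCPOBOP. The list's medians were -0.07 and -0.24, beside -0.00 and 0.01 for all genes.

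Genes known as PXR or CAR targets outside the Cyp3a family were counted to describe the response in the same livers. The list was chosen with earlier results of these data known, so its counts are no independent measure. Of 53 tested, 22 rose and 1 fell on phenobarbital in wild type (median change 0.87, against -0.00 for all genes) and 24 rose and 2 fell on TCPOBOP (median 0.89, against 0.01), where 0.895% and 3.34% of all genes rose and 0.578% and 2.8% fell. In knockout, 1 rose on phenobarbital, the efflux pump Abcc3 (1.05, limma adjusted p = 0.0143), with a list median of 0.26, against 0.03 for all genes, of which 0.185% rose. On TCPOBOP in knockout 1 rose, the P450 Cyp2c29 (1.05, adjusted p = 0.0449), with a median of 0.12, where 0.0327% of all genes rose. The Cyp2c29 levels there, 8.64 and 9.41, stayed below the 10.97 and 11.02 of wild type on corn oil. Cyp2b10 had values of 0.34 on phenobarbital and -0.29 on TCPOBOP in these knockout livers, at levels near the dim limit (adjusted p = 0.617 and 0.791). In human CAR, phenobarbital raised 5 and lowered 1 (0.109% and 0.556% of all genes), and CITCO raised 6 (0.0873%). Cyp2b10 already had 8.22 and 8.82 in human CAR on corn oil, against 4.66 and 5.22 in wild type on corn oil. The CITCO rises included Cyp2b10 by 3.01 (adjusted p = 0.0029), the P450s Cyp2c55 by 2.60 (adjusted p = 0.0292) and Cyp2c29 by 1.57 (adjusted p = 0.002), and Abcc3 by 0.99 (adjusted p = 0.00998). In those CITCO livers the differences from corn oil were 0.25 for Cyp3a11, -0.01 for Cyp3a13 and -0.26 for Cyp3a25, none of which passed. CITCO also raised Cyp2b10 in wild type, to 7.36 and 8.98 against 4.66 and 5.22 on corn oil (adjusted p = 0.00226), and in knockout its change was -0.48 (adjusted p = 0.698).

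Enzymes that work with P450s were followed as a further group of 10 tested genes. On phenobarbital in wild type 1 of 10 rose, Cyb5a, the cytochrome b5 that passes electrons to P450s (0.79, SE 0.10, limma adjusted p = 0.000449). On TCPOBOP in wild type 2 of 10 rose, Cyb5a (0.91, adjusted p = 3.04e-05) and Pgrmc1, a haem-binding membrane protein that binds P450s (0.48, adjusted p = 0.00761). The list's medians were 0.14 and -0.05, beside -0.00 and 0.01 for all genes. For Cyb5a the TCPOBOP change was 0.32 in knockout and 0.91 in wild type, and wild type minus knockout passed (0.59, adjusted p = 0.0467), as did human CAR minus wild type (-0.81, adjusted p = 0.00668). Alas1, the first enzyme of haem synthesis, passed in none of the ligand comparisons. Its changes were 0.48 on phenobarbital and 0.21 on TCPOBOP in wild type (adjusted p = 0.717 and 0.856). The other lists were counted on the same ligands in wild type. Of 8 tested female-biased liver genes, 1 rose on phenobarbital and 2 on TCPOBOP, and 0 fell. Of 13 male-biased genes, 0 rose on either, and 0 and 2 fell. Of 12 bile acid and cholesterol genes, 0 rose on either, and 0 and 2 fell. The shares of all genes were 0.895% higher and 0.578% lower on phenobarbital, and 3.34% and 2.8% on TCPOBOP.

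Cyb5a and Pgrmc1 were also the genes whose pattern over the 12 group means was most like that of Cyp3a11, out of all tested genes outside the Cyp3a family. Pearson's r was 0.94 for Pgrmc1 and 0.92 for Cyb5a over 12 groups, and 0.82 for each over the 24 arrays. The next 3 were Prss29, Pax9 and Trim27 (0.90 each over groups and 0.36 to 0.74 over arrays). The most similar genes to Cyp3a13 were Oas1b, an antiviral synthetase family member, and then Kti12, Mybbp1a, Dusp16 and Slc6a18, with r from 0.81 to 0.90 over groups and 0.53 to 0.65 over arrays. For Cyp3a25 they were the kinase gene Limk1, then Cplx4, Gpx5, Sgsm3 and Trpc7 (0.90 to 0.93 over groups and 0.44 to 0.70 over arrays). Group means of Cplx4 (4.93 to 5.19) and Slc6a18 (4.63 to 5.15) lay around the dim limit (4.93 to 5.08 across arrays), near the lower end of what the array reads. Among the 3 genes themselves, r over groups was 0.72 between Cyp3a11 and Cyp3a25, 0.37 between Cyp3a11 and Cyp3a13, and 0.24 between Cyp3a13 and Cyp3a25. These are descriptions without a test, since the groups share their arrays and the highest of 9167 values was taken for each gene.

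**Figure D4:**
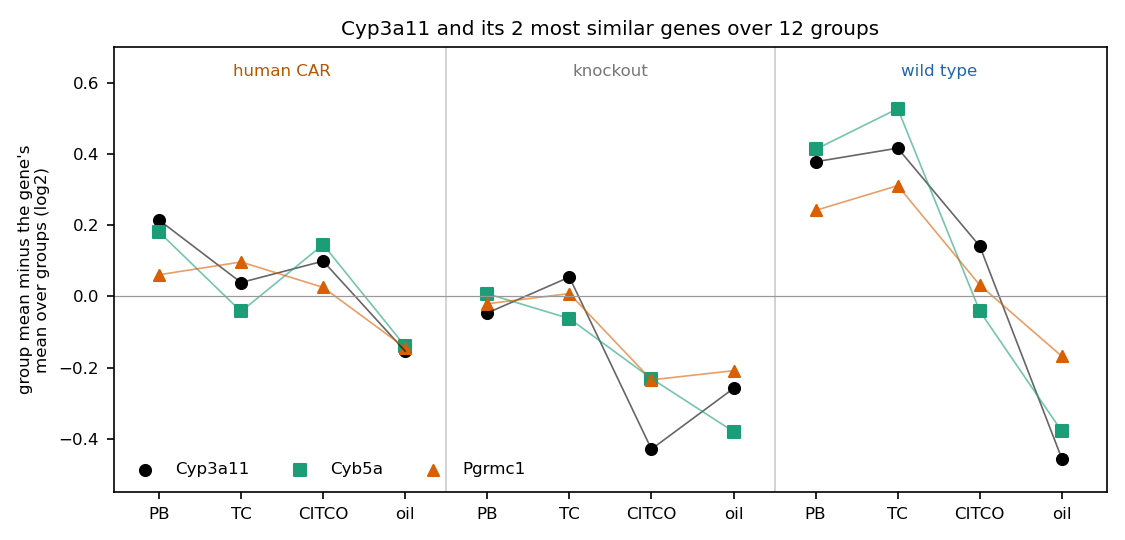
Group means of Cyp3a11, Cyb5a and Pgrmc1 (vertical axis, log2, each gene minus its mean over the 12 groups) by genotype and treatment (PB phenobarbital, TC TCPOBOP, oil corn oil). Lines join the groups of a genotype to guide the eye only. All 3 genes are highest in wild type on TCPOBOP, with phenobarbital in wild type second.

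How firmly the 6 passing results stand can be read from the fits with 1 array left out. The TCPOBOP rise of Cyp3a11 in wild type passed in all 4 such fits (changes of 0.59 to 1.15), and the other 5 each lost the call in at least 1 fit. Such a fit has 1 mouse in the reduced group and takes its spread from the groups of 2. The direction of the 6 results was the same in every one of these fits. It could not have turned, since the treated and corn oil livers behind each result did not overlap.

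**Figure D5:**
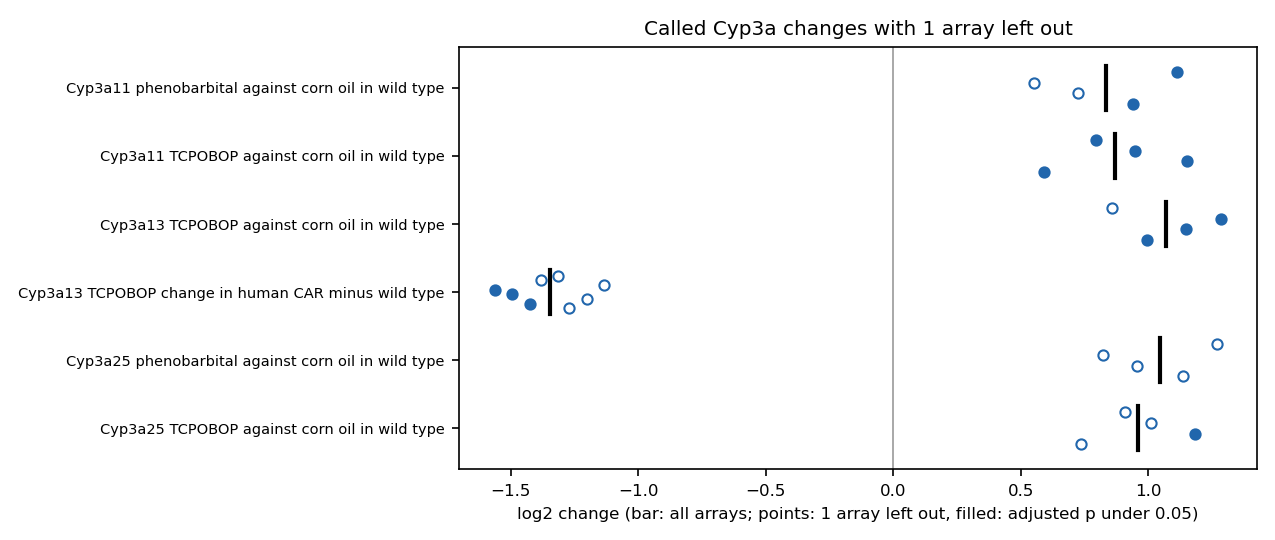
Values of the 6 passing results (vertical axis, named by gene and comparison) as log2 change with all arrays (bars) and with 1 array left out (points, filled where the adjusted p is under 0.05). The 4 points of the Cyp3a25 phenobarbital change are all open, and the 4 points of the Cyp3a11 TCPOBOP change are all filled.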

How the data were processed

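The authors deposited RMA values on the log2 scale, computed in R 2.15.0 per the submitters' processing notes. The table held 22690 probe sets and 24 arrays with 0 missing values, and array medians spanned 5.41 to 5.51, so the values were used unchanged. Gene symbols came from the platform annotation, and 64 control probe sets were dropped. A gene's brightest probe set by mean stood for it, and a gene was tested if it exceeded the 40th percentile on 2 or more arrays.

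Group means (12, with 12 residual degrees of freedom) were fitted with limma 3.58.1 (R 4.3.3). For each of 21 comparisons, p-values were adjusted over 9167 genes by Benjamini-Hochberg, with a threshold of 0.05. The steps were tested on simulated data. Members and lists were chosen with earlier results of these data known. Genes named whatever their p were Nr1i2, Nr1i3, Rxra, Alas1, Cyp2b10, Cyp2c29, Cyp2c55 and Abcc3, with Por not analysed here. From other lists up to 8 passing genes could be named, and the 5 most similar genes were taken by Pearson's r. Among 276 pairs of arrays none were copies (smallest SD of the difference 0.171). No hybridisation batch is given in the sources used here. Promoters were aligned with Biopython 1.88, and figures drawn with matplotlib 3.10.9.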

Additional observations from a re-analysis of the deposited data

Results flagged for a closer look

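The TCPOBOP response of Cyp3a13 differed between genotypes. The 2 human CAR livers had 9.87 and 9.80 on TCPOBOP against 10.26 and 9.97 on corn oil, and the 2 wild-type livers had 10.14 and 10.56 on TCPOBOP against 9.20 and 9.35 on corn oil. Every human CAR liver on TCPOBOP was below its controls and every wild-type liver above its own. The difference, human CAR minus wild type, was -1.35 (SE 0.29, limma adjusted p = 0.0188). On corn oil, human CAR minus wild type was 0.84 and did not pass (adjusted p = 0.217), and its part in the result was not tested.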

How the results depend on the processing

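The 63 values of the 3 genes were recomputed with cyclic loess, no dim filter, a stricter one (50th percentile on 6 arrays), a replicate block, array weights, averaged probe sets, a robust trended variance prior, only the genotypes compared, every probe set, and without the 2 arrays that stand apart. Most of these settings move only the adjusted p, since each gene has 1 probe set and the groups are of equal size. Direction could turn only under cyclic loess or without the 2 arrays that stand apart. Across all settings 626 values kept direction and side of the threshold. The other 4 all belong to Cyp3a13, and their cause was not tested: CITCO in human CAR was 0.0423 under cyclic loess, the phenobarbital difference of human CAR minus knockout was 0.00747 without the arrays that stand apart, and the TCPOBOP difference of wild type minus knockout, 1.04, passed with array weights and without those arrays. Whether same-numbered mice of different groups share more than a number cannot be told from these values. Their deviations from the group means correlated at -0.449 to 0.424 (median 0.0347) over 66 pairs of groups, with 17 pairs over 0.1. With the replicate block the phenobarbital change of Cyp3a11 in wild type was 0.83 (adjusted p = 0.00839), and no call of the 3 genes changed. With 1 array left out, values of the results that lost or gained a call or turned sign ranged as follows, by comparison. Ranges were, for phenobarbital against corn oil in wild type, Cyp3a11 0.55 to 1.11 and Cyp3a25 0.82 to 1.27; for phenobarbital against corn oil in knockout, Cyp3a13 0.32 to 0.81; for phenobarbital against corn oil in human CAR, Cyp3a25 -0.41 to 0.55; for TCPOBOP against corn oil in wild type, Cyp3a13 0.86 to 1.28 and Cyp3a25 0.74 to 1.18; for TCPOBOP against corn oil in knockout, Cyp3a13 -0.11 to 0.17. They were, for CITCO against corn oil in wild type, Cyp3a13 -0.0328 to 0.12; for CITCO against corn oil in human CAR, Cyp3a13 -0.17 to 0.16; for knockout against wild type on corn oil, Cyp3a11 -0.0832 to 0.48; for human CAR against knockout on corn oil, Cyp3a25 -0.0338 to 0.11; for phenobarbital change in wild type minus knockout, Cyp3a13 -0.27 to 0.34. Further ranges were, for phenobarbital change in human CAR minus knockout, Cyp3a11 -0.00238 to 0.31, Cyp3a13 -0.46 to 0.0238 and Cyp3a25 -1.11 to -0.15; for phenobarbital change in human CAR minus wild type, Cyp3a13 -0.56 to 0.0557 and Cyp3a25 -1.46 to -0.50; for TCPOBOP change in wild type minus knockout, Cyp3a11 0.28 to 0.84; for TCPOBOP change in human CAR minus knockout, Cyp3a25 -0.30 to 0.11; for TCPOBOP change in human CAR minus wild type, Cyp3a11 -0.96 to -0.40 and Cyp3a13 -1.56 to -1.13. The remaining ranges were, for CITCO change in human CAR minus knockout, Cyp3a25 -0.16 to 0.0153; for CITCO change in human CAR minus wild type, Cyp3a13 -0.22 to 0.12. None of the 6 passing results turned sign. With 1 array left out they could not, since their treated and corn oil groups did not overlap. Numbers of genes that passed moved more: phenobarbital in wild type had 135 (119 to 410 in other settings, 19 to 59 with 1 array left out), TCPOBOP in wild type 563 (484 to 1067, 237 to 297), the TCPOBOP differences 179 for wild type minus knockout (143 to 409, 84 to 128) and 171 for human CAR minus wild type (140 to 333, 70 to 143), phenobarbital in knockout 67 (2 to 148, 0 to 935) and in human CAR 61 (0 to 128, 0 to 1311). With 2 mice a group, the precision is limited, and an interval that spans 0 does not show that a gene did not change.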
